A study of Mus musculus with 8 samples.

Results

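Trh encodes the precursor of thyrotropin-releasing hormone, and on these hippocampal arrays its signal was high in 3 of the 4 samples labelled CD4 depleted and low in the fourth and in every control. The genes described here are Trh and 9 others, Esr1, Cartpt, Lbhd2, Adrb3, Smoc1, Ngb, Zcchc12, Hap1 and Resp18, that had been picked because their values followed the same arrays. The choice used the level of each gene in anti-CD4 replicates 1, 2 and 4 against anti-CD4 replicate 3 and the 4 controls, and its correlation with Trh over the 8 arrays, so both are given below as description and support nothing. The 10 genes are 10 of 23684 gene symbols on the array. They have 16 probes, and all 10 passed the filter on dim probes, which kept 15787 genes with a symbol. Esr1 passed through the anti-CD4 arrays alone, as it was well above background on all 4 of them and on no control array.

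The samples were total RNA from the hippocampus of female C57BL6/J mice labelled 8 weeks old. All had lived for 4 weeks in an enriched environment, that is, a cage with added objects and space. The anti-CD4 group (n = 4) had received antibody to CD4, which marks helper T lymphocytes, and the control group (n = 4) a control antibody. The comparison asks whether removing CD4-positive T cells alters hippocampal transcription. Nothing in the labels says whether a sample is 1 animal or a pool, so the p-values cover the spread among these samples only, and that spread may be technical. The depletion itself was not measured here. The tested Cd4 probe read 2.05 ± 0.12 in the anti-CD4 group and 2.03 ± 0.15 in controls (SD, n = 4 each), less than the spread between replicates.

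In the hypothalamus, neurons of the paraventricular nucleus cut thyrotropin-releasing hormone out of its precursor with prohormone convertases, and the tripeptide then drives thyrotropin release from the pituitary and so thyroid output. Trh is also made elsewhere in the brain. Cartpt, the precursor of the CART peptides that act on feeding and reward, and Esr1, the estrogen receptor alpha, are likewise best known from hypothalamus and medial amygdala, where estrogen-sensitive neurons lie close to the ventral hippocampus. Hap1, a huntingtin-associated trafficking protein, and Resp18, a protein of the secretory pathway of endocrine cells, are abundant in neuroendocrine neurons. Ngb encodes neuroglobin, a heme protein of neurons that binds oxygen.

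Each array spot carries a DNA probe of 60 bases, and its place on the transcript decides what is measured. The probes of Trh, Lbhd2 and Resp18 carry the letters of a polyadenylation hexamer (AATAAA or ATTAAA, searched on the given strand). Such a match alone does not place a probe at a transcript's 3′ end. The last 30 bases of these probes are shown with the hexamer in capitals.
Trh: tgttaatctcaatgacAATAAAatatatcc
Lbhd2: cttgaagcagaAATAAAggcatccttcctg
Resp18: aatatgaataATTAAAgttgattttcctgc
The Trh probe lies on chromosome 6 at 92192061 to 92192120 (mm9, minus strand), that of Lbhd2 on chromosome 12 at 112650200 to 112650259 (plus strand), and that of Resp18 on chromosome 1 at 75268777 to 75268836 (minus strand). The Cartpt probe is shown whole because its 60 bases cover 990 bases of the genome, chromosome 13 at 100668967 to 100669956 (mm9, minus strand), so it runs across an exon junction and reads spliced RNA.
Cartpt: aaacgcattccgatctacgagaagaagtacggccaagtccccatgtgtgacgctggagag

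Promoters of 7 of the 10 genes were in the RefSeq sequence table (GRCm38.p6). Those of the 2 peptide precursors are shown, a choice made after the matches were seen. Both hold letters of the cyclic AMP response element, a site of the activity-dependent factor CREB. The 250 bases before the annotated start are given, with every match in capitals.
Trh: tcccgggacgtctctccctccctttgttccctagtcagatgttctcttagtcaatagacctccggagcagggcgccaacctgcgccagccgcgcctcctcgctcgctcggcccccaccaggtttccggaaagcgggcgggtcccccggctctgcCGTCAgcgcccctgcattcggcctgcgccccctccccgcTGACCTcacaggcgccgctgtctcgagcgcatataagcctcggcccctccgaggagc
Cartpt: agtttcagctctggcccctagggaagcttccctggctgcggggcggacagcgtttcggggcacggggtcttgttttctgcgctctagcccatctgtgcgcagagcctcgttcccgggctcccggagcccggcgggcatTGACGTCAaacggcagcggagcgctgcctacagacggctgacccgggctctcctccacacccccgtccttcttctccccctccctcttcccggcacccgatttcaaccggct
The Trh stretch is chr6:92244651-92244900 and the Cartpt stretch chr13:99900684-99900933, both on the minus strand. The patterns searched, on both strands, were the full cyclic AMP element TGACGTCA, its part TGACG, the full estrogen element (GGTCA and TGACC with any 3 bases between them) and the nuclear receptor element AGGTCA. Cartpt held TGACGTCA at position -112 from its start, and 1.55% of 32851 promoters hold one. Its 2 matches to TGACG lie inside that element. Trh held TGACG once, at -96 (17.8% of promoters hold one), and AGGTCA once, at -57 (14.0%). The 2 annotated promoters of Hap1 overlap and share a single TGACG site. Those of Esr1, Lbhd2, Zcchc12 and Resp18 did not hold TGACG. No promoter of the 7 genes held the full estrogen element, which 0.0639% of promoters carry. A match is only a match of letters.

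The levels below are log2 of the processed signal minus the array's 75th percentile. Each difference on that scale is the anti-CD4 mean less the control mean. Trh, the first of the peptide precursors, read 2.68, 2.37, -2.49 and 2.34 in anti-CD4 replicates 1 to 4, against -2.94, -4.36, -3.02 and -3.10 in control replicates 1 to 4. In processed signal, these were 4607, 3919, 137 and 3680 in the anti-CD4 arrays, against 120, 41.3, 91.0 and 85.5 in controls. Anti-CD4 replicate 3 lay 0.45 above the highest control, so the groups did not overlap, while the lowest of the other 3 anti-CD4 arrays lay 4.83 above replicate 3. The scanner software gave Trh an error of at most 24.7% of its signal on any array. The single Trh probe was well above background on 7 of 8 arrays, all but control replicate 2.

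Cartpt read 0.98, 1.45, -0.17 and 1.04 in anti-CD4 replicates 1 to 4, against -0.40, -0.71, -0.24 and -0.53 in controls. It was well above background on every array, so its low values are measured levels and not limits of detection. Replicate 3 of the anti-CD4 group was 0.07 above the highest control, and the next anti-CD4 array 1.15 above replicate 3. The highest array was anti-CD4 replicate 2, not replicate 1 as for Trh.

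Of the receptors, Esr1 read -2.56, -2.58, -3.91 and -2.96 in anti-CD4 replicates 1 to 4, against -4.34, -4.21, -4.05 and -4.36 in controls. Its tested probe, on chromosome 10 at 5343056 to 5343115 (mm9, minus strand), is printed on 10 spots of each array, which gives a measure of the spot-to-spot error. The median of the 10 spots was 122, 134, 52.0 and 96.4 in processed signal in anti-CD4 replicates 1 to 4, against 44.5, 46.2, 44.3 and 35.0 in controls. All 10 spots were well above background in anti-CD4 replicates 1, 2 and 4 and 8 of 10 in replicate 3, while 2 to 4 of 10 were in the control arrays. The lowest of the 10 spots read 96.1 in anti-CD4 replicate 1, 87.5 in replicate 2 and 71.0 in replicate 4, against a highest control spot of 75.1, so the spots of replicate 4 overlapped those of a control array. In anti-CD4 replicate 3 the spots ran between 34.6 and 75.8, against 22.9 to 75.1 over the controls. Since no control array was well above background, the anti-CD4 mean is given as at least 2.24-fold higher, a bound that holds on this scale only. A control array's bound was the higher of its own value and its lowest signal well above background, which raised 1 control array. The fitted log2 difference was 1.24 here, but 0.39 with the authors' deposited table and 0.60 with another background correction, normexp.

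Adrb3, the beta-3 adrenergic receptor known from adipose tissue, read -1.57, -1.34, -2.99 and -1.32 in anti-CD4 replicates 1 to 4, against -2.37, -2.76, -2.52 and -2.42 in controls. Here anti-CD4 replicate 3 was the lowest of all 8 arrays, and the groups overlapped. The probe lies on chromosome 8 at 28336268 to 28336327 (mm9, minus strand).

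Among the secretory and trafficking proteins, Resp18 read 3.44, 3.76, 3.15 and 3.85 in anti-CD4 replicates 1 to 4, against 3.03, 2.97, 3.37 and 3.30 in controls. Anti-CD4 replicate 1 was only 0.07 above control replicate 3, so Resp18 separated the arrays least of the 10 genes. Hap1 read 4.73, 5.33, 4.29 and 4.84 in the anti-CD4 arrays, against 4.54, 4.29, 4.51 and 4.50 in controls. Anti-CD4 replicate 2 stood highest, and replicate 1 was 0.19 above the highest control. The Hap1 probe lies on chromosome 11 at 100208811 to 100208870 (mm9, minus strand).

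The neuroglobin gene Ngb read -0.75, 0.11, -1.97 and -0.31 in anti-CD4 replicates 1 to 4, against -1.87, -2.45, -1.89 and -2.02 in controls. Smoc1, a secreted calcium-binding protein of the extracellular matrix, read 0.42, 0.63, -0.23 and 0.54 in the anti-CD4 arrays, against -0.16, -0.44, -0.29 and -0.36 in controls. For both, anti-CD4 replicate 3 lay inside the control range. Zcchc12, a zinc finger protein that binds Smad factors and aids bone morphogenetic protein signalling, read 4.40, 4.82, 3.80 and 4.38 in the anti-CD4 arrays, against 3.50, 3.26, 3.77 and 3.66 in controls. Lbhd2, listed in the files as A230065H16Rik, read -0.17, 0.12, -2.22 and -1.11 in the anti-CD4 arrays, against -3.04, -2.78, -2.80 and -2.94 in controls. The 3 high arrays spread widely for Lbhd2, by 1.23 between replicates 2 and 4, where Trh spread by 0.34. Lbhd2, Smoc1 and Ngb all lie on chromosome 12, Smoc1 at 82286760 to 82286819 (mm9, plus strand) and Ngb at 88438908 to 88438967 (minus strand). The Zcchc12 probe lies on chromosome X at 33739067 to 33739126 (plus strand), and the 10 genes cover 8 chromosomes.

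**Figure D1:**
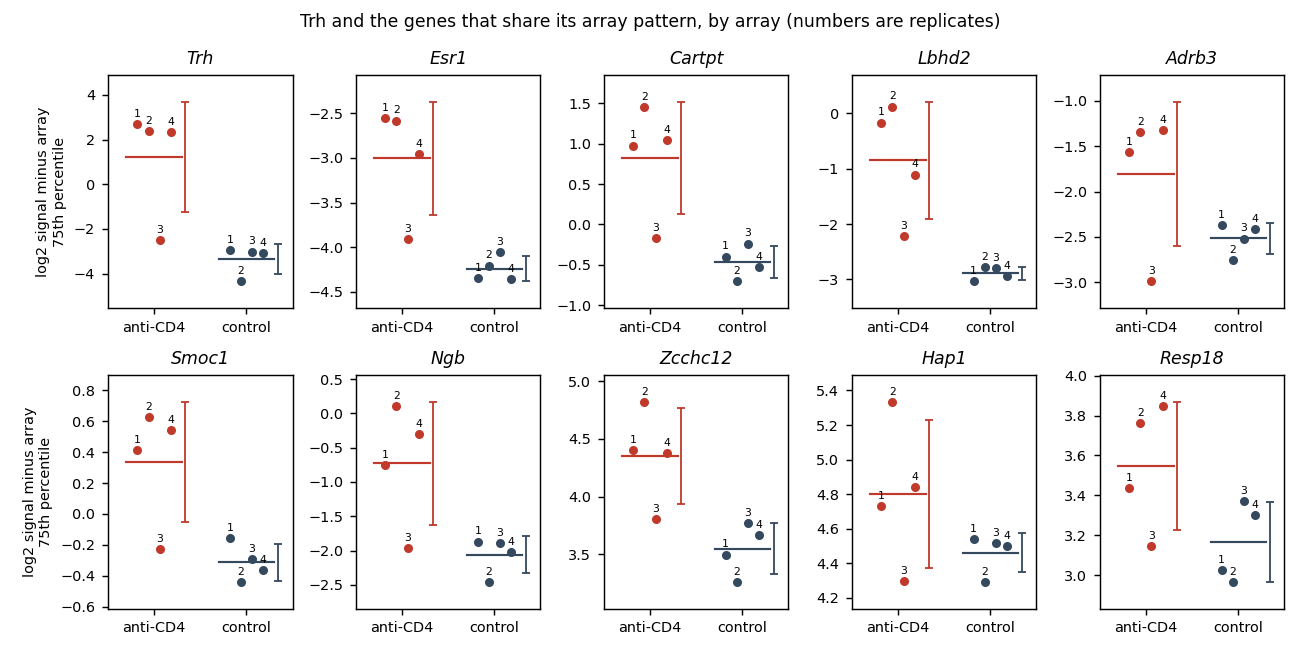
Level of each of the 10 genes on every array (y axis, log2 signal minus the array's 75th percentile; scales differ between panels), with anti-CD4 arrays left and controls right and the replicate number over each point. Horizontal lines are group means and bars ± 1 SD (n = 4). Anti-CD4 replicate 3 sits below the other 3 anti-CD4 arrays in every panel, and for Adrb3 it is the lowest point.

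Within the 3 high arrays the genes did not keep one order. Anti-CD4 replicate 2 was the highest array for 6 of the 10 genes, replicate 1 for Trh and Esr1, and replicate 4 for Adrb3 and Resp18. Anti-CD4 replicate 3 lay above every control for 5 genes (Trh, Esr1, Cartpt, Lbhd2 and Zcchc12), within the control range for 4 and below it for Adrb3. The median SD of the 10 genes was 0.66 among the anti-CD4 arrays and 0.19 among controls, while over all rows tested the median SD was 0.13 in the anti-CD4 group and 0.14 in controls.

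Further probes give a second reading of 4 of the genes. The second Ngb probe, at base 1007 of the transcript where the first is at base 1129, shares no base with it. It read -1.19, -0.53, -2.51 and -0.86 in anti-CD4 replicates 1 to 4, against -2.51, -3.13, -2.55 and -2.50 in controls, so both Ngb probes had the same arrays high and low. The second Hap1 probe read -1.74, -1.12, -2.13 and -1.49 in the anti-CD4 arrays, against -1.66, -1.75, -1.55 and -1.73 in controls. Only replicates 2 and 4 of the anti-CD4 group were above the controls on that probe, and its group difference was 0.05, against 0.34 for the brighter Hap1 probe. The second Adrb3 probe was well above background on 3 arrays, all anti-CD4, among them replicate 3. It read -3.89, -3.57, -3.68 and -4.14 in the anti-CD4 arrays, against -4.40, -3.94, -4.03 and -4.04 in controls, so replicate 3 was not its low array. None of the 3 remaining Esr1 probes was well above background, on any of the 8 arrays. The pattern of Esr1, of Adrb3 and of Hap1 thus rests on 1 probe each, as it does for the 6 genes with a single probe.

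**Figure D2:**
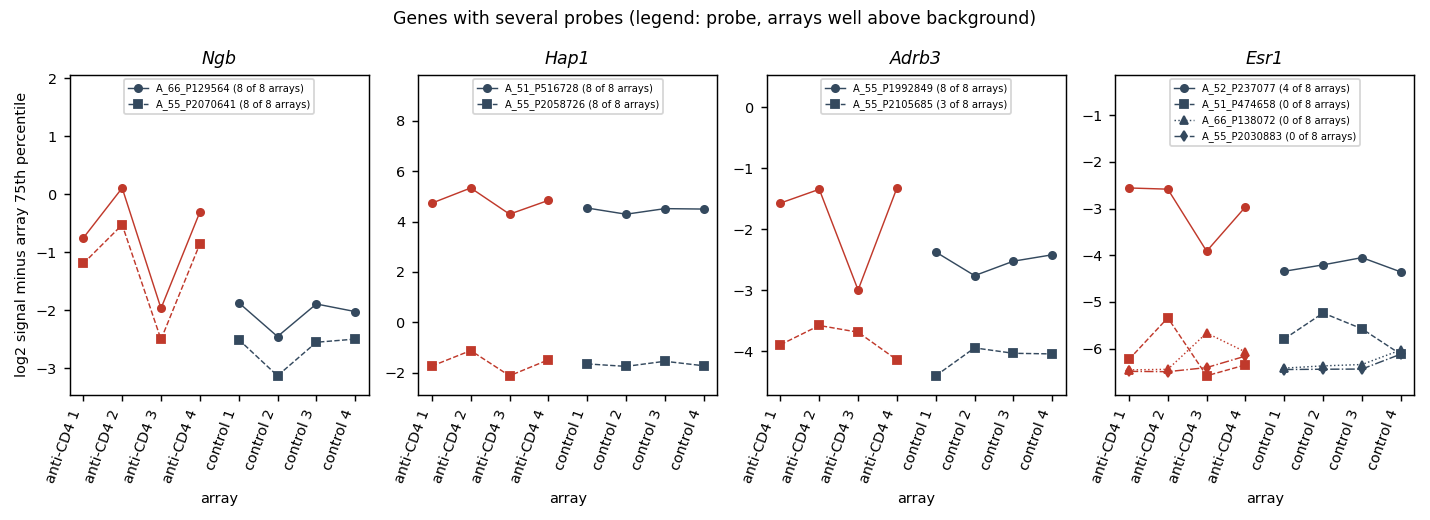
Every probe of the 4 genes with more than 1 (y axis, log2 signal minus the array's 75th percentile; x axis, the 8 arrays, anti-CD4 in red and controls in dark grey; the legend gives the number of arrays on which a probe was well above background). Both Ngb probes dip in anti-CD4 replicate 3, whereas the dimmer Adrb3 probe does not, and 3 Esr1 probes stay at the background.

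In the study's own comparison of 4 anti-CD4 against 4 control arrays, none of the 10 genes passed an adjusted p of 0.05 (limma, Benjamini-Hochberg over 23599 rows). The same fit called 0 rows higher (0%) and 0 rows lower (0%). At an unadjusted p under 0.05 it had 1455 rows higher (6.17%) and 1609 lower (6.82%), and 8 of the 10 genes were among those higher, a share that cannot be read as support, since the genes were picked on these arrays. Centred on each array's median instead, 2067 rows were higher and 957 lower at that p, and 0 passed after adjustment. Trh differed by 4.58 ± 1.08 (SE), a 23.8-fold difference of geometric means with adjusted p = 0.228 (limma), its anti-CD4 values averaging 1.22 ± 2.48 and its control values -3.35 ± 0.67 (SD, n = 4 each). Only 3 of the 4 control arrays measured Trh above background, and without control replicate 2 the difference was 4.24. Replicate 3, the low array, widened the SD of the anti-CD4 group.

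Of the other 9 genes, the 8 measured in both groups differed by 0.34 to 2.05, with adjusted p between 0.208 and 0.482 (limma). For Esr1, with its bound of at least 2.24-fold on this scale, the adjusted p was 0.220 (limma). Lbhd2 differed by 2.05 ± 0.45 (SE), Ngb by 1.33 ± 0.40 and Cartpt by 1.29 ± 0.31. Zcchc12 differed by 0.80 ± 0.21, Adrb3 by 0.71 ± 0.35, Smoc1 by 0.65 ± 0.18, Resp18 by 0.38 ± 0.17 and Hap1 by 0.34 ± 0.19. The median of the 10 fitted differences was 1.02, or 0.98 with Esr1 at its bound, where that of all rows was 0.01. The 4 anti-CD4 arrays lay above the 4 controls without overlap for Trh, Esr1, Cartpt, Lbhd2 and Zcchc12, 5 of the 10, as they did for 3.82% of all rows. The gap between the groups ran from 0.03 for Zcchc12 to 0.56 for Lbhd2. Neither that share nor the median can be read as support, since the genes were picked on these arrays. In bulk tissue, more cells that express a gene and more of its RNA per cell cannot be told apart.

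Without anti-CD4 replicate 3, an array singled out by these very values, the fit called 9 rows higher (0.0381%) and 2 lower (0.00847%), and 6 of the 9 were Trh, Esr1, Cartpt, Lbhd2, Adrb3 and Smoc1, with adjusted p between 0.00563 and 0.0492 (limma). Since the genes were picked on this split, nothing can be read from that count. All 10 genes had anti-CD4 replicates 1, 2 and 4 above the other 5 arrays, as 7.18% of all rows did, and all 10 had them above every control, as did 9.55%. A gap of 0.4 or more on the log2 scale separated these arrays for 0.22% of rows and for all but Hap1 and Resp18 among the 10.

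Likeness to Trh was measured by Pearson's r over the 8 arrays, which share 1 slide and 1 scan date. They fall into 2 sets of Trh values, so that r mainly records which side of the split an array took. It was 0.98 for Smoc1 and Cartpt, 0.97 for Esr1, 0.96 for Ngb, 0.95 for Lbhd2, 0.94 for Zcchc12, 0.93 for Adrb3, 0.85 for Resp18 and 0.81 for Hap1. Spearman's rho was lower, between 0.64 for Adrb3 and 0.90 for Cartpt, Smoc1 and Zcchc12. Of the 9 genes, 7 had r of 0.9 or more, as had 227 of 23598 rows (0.962%). By r, Smoc1 ranked 4th of all rows, Cartpt 6th and Esr1 14th, while Resp18 ranked 578th and Hap1 855th. Among each other the 10 genes had r between 0.75 for Lbhd2 with Resp18 and 0.99 for Esr1 with Lbhd2, with a median of 0.93 over 45 pairs.

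The 12 other named genes most like Trh, among rows that spanned at least 1 on the log2 scale, had r of 0.93 to 0.98: Ano2, Ecel1, Arhgap6, Moxd1, Prkg2, Tox3, Tmem132e, Krt12, Rgs6, Plxnd1, Slc23a3 and Nr2f2. Ecel1, a membrane metallopeptidase of neurons, read 2.32, 2.75, 0.41 and 2.29 in anti-CD4 replicates 1 to 4, against 0.64, -0.63, 0.81 and 0.39 in controls, the widest separation after Trh at 1.49. Prkg2, a kinase activated by cyclic GMP, read -0.06, 0.29, -1.20 and -0.03 in the anti-CD4 arrays, against -0.88, -1.80, -1.38 and -1.08 in controls. Nr2f2, a nuclear receptor of the COUP-TF family, read 2.46, 2.91, 2.04 and 2.50 in the anti-CD4 arrays, against 1.89, 1.74, 1.94 and 1.98 in controls. Anti-CD4 replicate 2 was the highest array for 10 of the 12, and control replicate 2 the lowest for 9. None of the 12 passed the comparison of the groups (adjusted p between 0.240 and 0.348, limma).

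**Figure D3:**
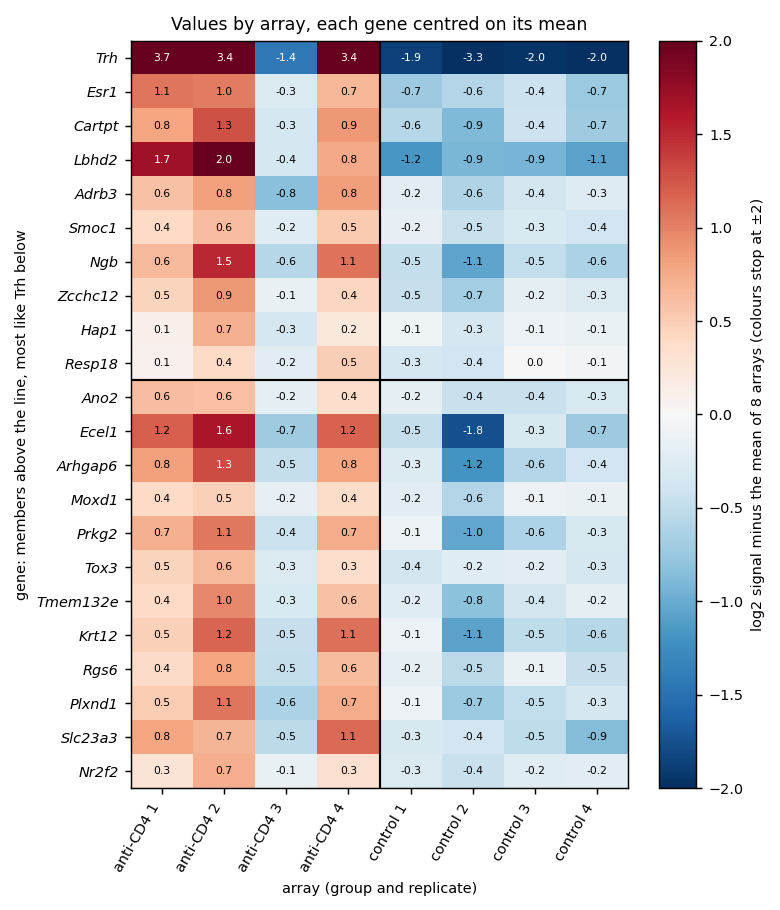
Values of the 10 genes (above the line) and of the 12 other genes most like Trh (below it) on each array, as log2 signal minus the gene's mean over 8 arrays, with anti-CD4 arrays left of the vertical line. Colours stop at ± 2, and the printed numbers give the values. Anti-CD4 replicates 1, 2 and 4 are above 0 in every gene shown, and anti-CD4 replicate 3 is below 0 in every one.

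**Figure D4:**
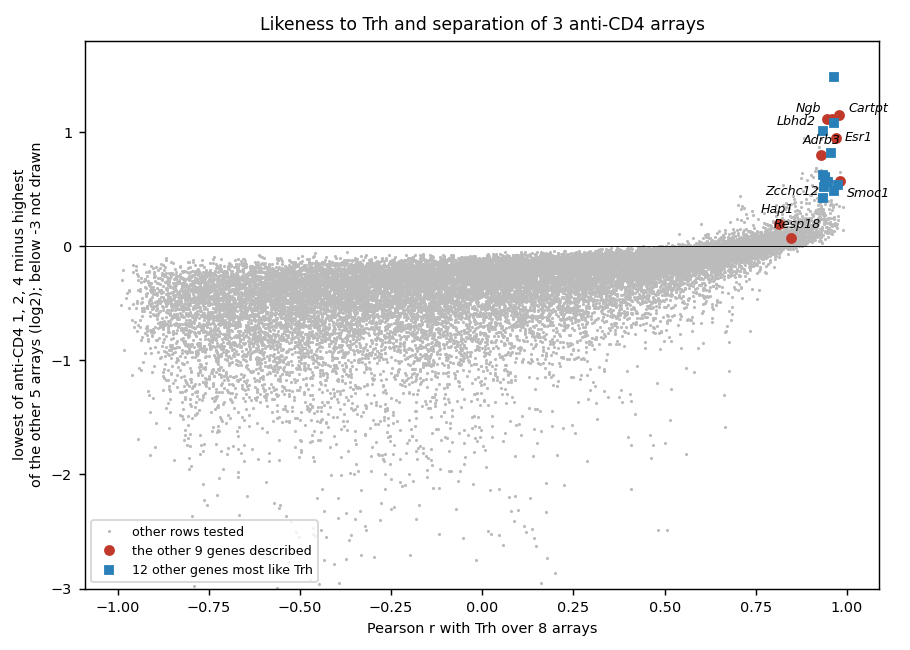
Each point is 1 of the rows tested (x axis, Pearson's r with Trh over 8 arrays; y axis, lowest of anti-CD4 replicates 1, 2 and 4 minus highest of the other 5 arrays, log2). Red points are the 9 genes that share the pattern of Trh and blue squares the 12 others most like it. Resp18 and Hap1 lie among the grey points, and the other 7 red points lie above most of them.

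Of the pathway that makes and reads thyrotropin-releasing hormone, 16 of 22 listed genes were measured, and 0 passed the adjusted threshold in either direction (limma). At an unadjusted p under 0.05, 3 were higher and 1 lower, against 6.17% and 6.82% of all rows. The median difference of the 16 genes was 0.06, against 0.01 over all rows. Anti-CD4 replicates 1, 2 and 4 were above the other 5 arrays for 5 of the 16 (7.18% of all rows). Their median r with Trh was 0.46, against 0.06 over all rows. Trhr, the receptor of the hormone, read 1.06, 1.15, 0.31 and 0.98 in anti-CD4 replicates 1 to 4, against -0.07, -0.73, 0.22 and 0.26 in controls, a difference of 0.95 ± 0.26 (SE; adjusted p = 0.247). Its anti-CD4 replicates 1, 2 and 4 were the 3 highest arrays, as for Trh itself, with r of 0.93. Pam, the enzyme that amidates the peptide, differed by 0.36, and Qpct, which forms its pyroglutamyl end, by 0.24 (adjusted p = 0.285 and 0.264, limma).

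The convertases that cut the precursor, Pcsk1 and Pcsk2, differed by -0.03 and 0.0054 (adjusted p = 0.954 and 0.988, limma). Trhde, the ectoenzyme that degrades the hormone, differed by -0.09 (adjusted p = 0.675), and Pgpep1, a cytosolic pyroglutamyl peptidase, by -0.30 (adjusted p = 0.354), with r of -0.93 with Trh. Tshb, Tshr, Cga and Trhr2, and the transcription factors Sim1 and Otp of hypothalamic Trh neurons, did not pass the filter. Sim1 and Otp were well above background on 0 of 8 arrays.

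Of 20 listed genes of estrogen signalling 16 were measured, and 1 of them had anti-CD4 replicates 1, 2 and 4 above the other 5 arrays (7.18% of all rows did). In either direction 0 passed (limma), and 1 was higher and 0 lower at an unadjusted p under 0.05 (6.17% and 6.82% of all rows). The median difference was 0.03 and the median r with Trh 0.12. Esr2, the beta receptor, differed by -0.0049 and Pgr, the progesterone receptor and a classical estrogen target, by 0.10 (adjusted p = 0.982 and 0.731, limma). Greb1, another estrogen target, differed by 0.12 and the oxytocin receptor gene Oxtr by 0.30 (adjusted p = 0.663 and 0.498). Cyp19a1, the aromatase that makes estrogen, was well above background on 3 anti-CD4 arrays (replicates 1, 2 and 3) and on no control array, and failed the filter. The dense-core vesicle proteins, which store and process peptides in neuroendocrine cells, were all measured (18 genes) and had a median difference of 0.02. Of these, 0 passed in either direction and 1 was higher at an unadjusted p under 0.05 (limma; 6.17% of all rows were). Anti-CD4 replicates 1, 2 and 4 were above the other 5 arrays for 4 of the 18, as for 7.18% of all rows. The median r of the 18 genes with Trh was 0.39.

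Some genes listed for neighbouring tissue were highest on the same arrays, and their part in the pattern was not tested. The listed genes are not confined to that tissue, and several, among them Sst, Npy and Crh, are also in the neuropeptide list below. The list therefore cannot place the signal in a tissue. Of 34 listed genes of hypothalamus and medial amygdala 20 were measured. Anti-CD4 replicates 1, 2 and 4 were above the other 5 arrays for 11 of these, as for 7.18% of all rows. This list, like the others, was chosen with earlier results of these data known, so its shares and medians cannot be read as support. The list had 0 passing in either direction (limma). At an unadjusted p under 0.05 it had 11 higher and 0 lower, against 6.17% and 6.82% of all rows. The 20 genes had a median difference of 0.30, and their median r with Trh was 0.82, where that of all rows was 0.06. Their mean, each gene set against its own 8-array average, was 0.21, 0.49, -0.09 and 0.28 in anti-CD4 replicates 1 to 4, against -0.17, -0.49, -0.10 and -0.13 in controls. Their summed linear signal, in units of the 75th percentile, ran between 115 and 137 in the anti-CD4 arrays and between 112 and 132 in controls, so the sum, which a few bright genes set, overlapped. Baiap3, which acts in dense-core vesicle traffic, read -2.14, -0.49, -2.21 and -1.84 in the anti-CD4 arrays, against -3.52, -4.36, -3.55 and -3.21 in controls, so its replicate 3 was close to replicate 1. Baiap3 differed by 1.99 and Ecel1, already among the genes most like Trh, by 1.64. Ghrh, the growth hormone-releasing hormone gene, differed by 0.45, Gpr101, an orphan receptor, by 0.62 and Ahi1, a partner of Hap1, by 0.28 (adjusted p between 0.184 and 0.298 for the 5, limma). In 4 of the 20 genes r with Trh was below 0, at -0.32 for Npy, -0.09 for Lhx6, -0.06 for Nr5a1 and -0.04 for Hdc, and the differences of Npy and Sst were -0.11 and -0.08 (adjusted p = 0.577 and 0.742, limma). These 5 were named after their values were seen.

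Of the 14 listed genes that did not pass the filter, 6 were well above background on no array, among them the hypothalamic factors Nkx2-1, Sim1, Otp and Fezf1 and the peptide gene Pmch. Avp and Oxt, the vasopressin and oxytocin genes, were well above background on 2 anti-CD4 arrays and 1 control array each. Ucn3, the urocortin 3 gene, was so on 3 anti-CD4 arrays (replicates 2, 3 and 4) and on no control array.

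Other neuropeptide precursors followed in part. Of 24 listed 19 were measured, with a median r with Trh of 0.78. Among the 19, 0 passed (limma), and 5 were higher and 1 lower at an unadjusted p under 0.05 (6.17% and 6.82% of all rows). Anti-CD4 replicates 1, 2 and 4 were the 3 highest arrays for 9 of them, as for 7.18% of all rows. Crh, the corticotropin-releasing hormone gene, read -0.04, 0.08, -0.45 and 0.0018 in anti-CD4 replicates 1 to 4, against -0.42, -0.62, -0.25 and -0.39 in controls. Pomc, the precursor of melanocortins and endorphin, read 0.0088, -0.02, -0.26 and 0.10 in the anti-CD4 arrays, against -0.13, -0.34, -0.28 and -0.44 in controls. The differences of Crh and Pomc were 0.32 and 0.25 (adjusted p = 0.355 and 0.335, limma). Tac1, Penk and Tac2 differed by more, 0.58, 0.56 and 0.47 (adjusted p = 0.255, 0.352 and 0.346, limma). Other members went the other way, with Grp at -0.28, Cort at -0.12 and Cck at -0.05 (adjusted p = 0.368, 0.760 and 0.835, limma). In all, 13 of the 19 differences were above 0.

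Striatal genes (8 of 11 measured) had a median difference of 0.25, and 3 of them separated the 3 anti-CD4 arrays (7.18% of all rows did). Drd2 and the striatal transcription factor gene Isl1 were well above background on no array. Thalamus and habenula genes (11 of 14 measured) had a median difference of 0.23, and 2 of them separated the 3 anti-CD4 arrays. In these 2 lists 0 genes passed (limma), with 2 striatal genes higher and 1 lower, and 3 thalamic genes higher and 0 lower, at an unadjusted p under 0.05. At that p, 6.17% of all rows were higher and 6.82% lower. The median r with Trh was 0.44 for the striatal list and 0.28 for the thalamic list.

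Defining hippocampal genes were measured. All 12 listed genes of pyramidal neurons and all 12 of dentate granule cells passed the filter, all but Npnt (7 arrays) being well above background on all 8 arrays. Their median differences were -0.13 and -0.20, and their median r with Trh was -0.45 and -0.48. In both lists 0 genes passed (limma). At an unadjusted p under 0.05, 1 was higher in each list (6.17% of all rows), and 1 pyramidal and 3 dentate genes were lower (6.82%). The dentate mean was 0.11, -0.35, 0.09 and -0.22 in anti-CD4 replicates 1 to 4, against -0.06, 0.31, 0.16 and -0.03 in controls, lowest in anti-CD4 replicate 2, where 6 of the 10 genes were highest. Neurod6, a transcription factor of pyramidal neurons, read 3.34, 2.96, 3.39 and 3.25 in the anti-CD4 arrays, against 3.50, 3.98, 3.80 and 3.66 in controls (difference -0.50, adjusted p = 0.247, limma). The part of these markers in the pattern of Trh was not tested.

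Choroid plexus signal did not follow Trh. Ttr, the transthyretin gene of choroid plexus, read 1.22, 7.60, 8.48 and 7.75 in anti-CD4 replicates 1 to 4, against 8.16, 2.72, -0.46 and 8.26 in controls, and its r with Trh was 0.06. Trh was high both in anti-CD4 replicate 1, which had little Ttr, and in replicates 2 and 4, which had much. Of 14 choroid plexus genes 0 separated the 3 anti-CD4 arrays, and 0 passed in the comparison (limma; 0 at an unadjusted p under 0.05). Markers of microglia, oligodendrocytes, astrocytes, endothelium and red cells, 15 genes all measured, had a median difference of 0.08 and a median r with Trh of 0.14. Among these, 0 passed (limma), and 5 were higher and 1 lower at an unadjusted p under 0.05 (6.17% and 6.82% of all rows). Of the 15, 0 separated the 3 arrays, where 7.18% of all rows did. Alas2, an enzyme of heme synthesis in red cells, read -1.79, -1.59, -1.55 and -1.52 in anti-CD4 replicates 1 to 4, against -2.12, -2.54, -2.21 and -2.08 in controls, without overlap. Its difference was 0.63, and those of the globin genes Hba-a1 and Hbb-bs, which also did not overlap, were 0.49 and 0.70 (adjusted p = 0.179, 0.179 and 0.184, limma). The endothelial gene Flt1 of the same list did not overlap either (difference 0.33, adjusted p = 0.247, limma). Over all rows, 3.82% were higher in the anti-CD4 group without overlap. Globin genes have near-identical copies that a probe may not tell apart. Their r with Trh was 0.75 for Alas2, 0.74 for Hba-a1 and 0.64 for Hbb-bs, and anti-CD4 replicate 3 was not low for any of the 3. Their part in the result was not tested.

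**Figure D5:**
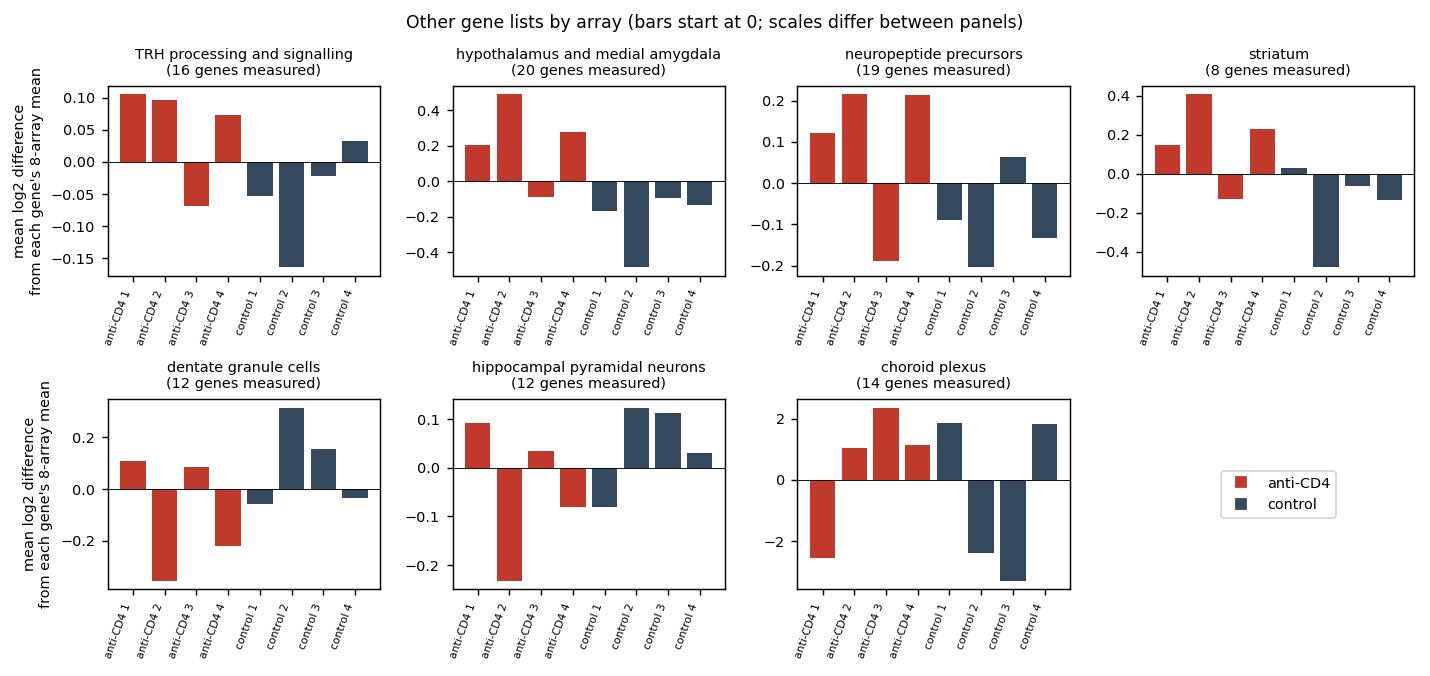
Mean level of 7 other gene lists on each array (y axis, mean log2 difference from each gene's own 8-array mean; bars start at 0, red for anti-CD4 and dark grey for control, and scales differ between panels). The hypothalamus and medial amygdala list is above 0 in anti-CD4 replicates 1, 2 and 4 and below 0 on the other 5 arrays, while the choroid plexus list is high in 3 anti-CD4 and 2 control arrays that do not match that split.

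A single slide held all 8 arrays, and they shared 1 scan date. The anti-CD4 arrays filled slide row 1 and the controls slide row 2, so the effects of row and antibody cannot be told apart. In both rows the slide column was the replicate number, so same-numbered samples shared a column. The share of probes well above background ran between 51.2% and 54.3% in the anti-CD4 arrays and between 51.1% and 54.0% in controls, and was 52.8% in anti-CD4 replicate 3. Saturation was reached by 0 spots. Precision is limited by the number of arrays.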

How the data were processed

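Hippocampal RNA of 8 samples was hybridised to 1-colour Cy3 arrays. The deposited scanner files hold spot intensity made with Feature Extraction 10.7.3.1 on design 028005, per the file headers, background-subtracted and detrended within each array and not normalized between arrays. The authors' deposited table holds log2 values of the same 55681 probes, whose column medians lay between 7.8297 and 7.8329. The submitters' processing notes name limma for it, and no label or header gives its further steps.

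Control spots and outlier-flagged spots were left out, and log2 signals of repeat spots averaged. The 75th percentile of its own log2 signals was then subtracted from every array. Probes well above background on at least 4 of 8 arrays were tested (29403 probes; 23599 rows after taking a gene's brightest probe). Names came from RefSeq (GRCm38.p6), 27509 probes by accession, 3549 by symbol and 404 by synonym, 1350 kept the files' name, and 22869 had none. Probe coordinates are the files' own (mm9). The 2 groups went into limma 3.58.1 (lmFit, then eBayes; R 4.3.3) for two-sided tests, and the procedure was tested on simulated data. Genes with the smallest p of each list (up to 5), the 12 named genes most like Trh with a range of at least 1, Trhr, Trhde, Pcsk1, Pcsk2, Pam, Esr2, Pgr, Ttr and Cd4 are named by rule; others were named after their values were seen. Members and lists were chosen with earlier results of these data known. The alternatives covered normalization, background correction, the authors' table, the filter, the replicate number, how a gene's probes are combined, the empirical Bayes options and each array left out. Deviations of same-numbered samples from their group means correlated at -0.45, -0.29, -0.31 and 0.30 for replicates 1 to 4. These values cannot decide whether the numbers pair the samples, and the main fit did not pair them.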

Additional observations from a re-analysis of the deposited data

Results flagged for a closer look

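In 4 of 42 groups of 4 values examined (the 10 genes and 11 list means, by group), 1 array stood apart from the other 3 by a gap test. Chance gives about 1 in 20 groups, a rate that does not apply to the 10 genes, which were chosen because anti-CD4 replicate 3 lay apart. Trh was -2.492 in anti-CD4 replicate 3, against 2.335 to 2.678 in the other anti-CD4 arrays. Adrb3 was -2.993 in the same array, against -1.567 to -1.320 in the other anti-CD4 arrays. In control replicate 2, Trh was -4.356, against -3.098 to -2.940 in the other controls, and Hap1 was 4.292, against 4.496 to 4.538. That Trh probe was not well above background in control replicate 2.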

How the results depend on the processing

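The 10 differences kept their sign in all 168 combinations of gene and alternative, and stayed short of the threshold in 162. The 6 others, Trh, Esr1, Cartpt, Lbhd2, Adrb3 and Smoc1, passed only without anti-CD4 replicate 3. The difference of Trh ran between 4.09 and 5.81 over the arrays left out, the highest without anti-CD4 replicate 3, and between 3.14 (the authors' table) and 4.61 (median centring) otherwise. The count of rows past the threshold ran between 0 and 11 over the arrays left out, with 11 without anti-CD4 replicate 3, and was 2, both lower, with the authors' table and with trended and robust empirical Bayes, and 0 otherwise. With the replicate number as a block it was 0 and the adjusted p of Trh 0.449 (limma). The fitted difference of Esr1, whose controls were not well above background, was 0.39 with the authors' table and 0.60 with normexp, against 1.24. Adrb3 differed by 0.36 with the authors' table and Lbhd2 by 1.31, against 0.71 and 2.05. Hap1 differed by 0.16 without anti-CD4 replicate 2 and by 0.20 with the mean of its probes, against 0.34. All 10 genes had anti-CD4 replicates 1, 2 and 4 above every control under each of 5 alternatives. Of 117 correlations with Trh, 1 moved by 0.1 or more, that of Hap1, to 0.70 with the mean of its probes. Trh and Esr1 were not tested where all 8 arrays had to be well above background. The cause of these changes was not tested.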

Other observations

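Among rows outside the 10 genes, the widest separations of anti-CD4 replicates 1, 2 and 4 from the other 5 arrays were those of Ecel1 at 1.49, Arhgap6 at 1.08 and Slc23a3 at 1.01 on the log2 scale. Fign, Dtl and Cdh4, a cadherin of neurons, were also separated, by 0.94, 0.87 and 0.77, and were chosen after their values were seen.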
